A study of Mus musculus with 11 samples.

Results

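Fibroblast growth factors (FGFs) are secreted proteins that bind receptor tyrosine kinases of the FGFR family together with heparan sulfate chains on the cell surface. An occupied receptor phosphorylates the adaptor Frs2 and switches on the Ras and MAP kinase cascade. Sprouty proteins and dual-specificity phosphatases feed back on that cascade. In vascular tissue Fgf1 and Fgf2 are known as stimulators of endothelial growth, while Fgf7 and Fgf10 are made by mesenchymal cells such as fibroblasts and act mainly on epithelium. The 10 genes described here were the 6 ligands Fgf1, Fgf2, Fgf7, Fgf9, Fgf10 and Fgf18, the 3 kinase receptors Fgfr1, Fgfr2 and Fgfr3, and the kinase-free receptor Fgfrl1. They were taken by gene symbol from the 23238 symbols measured, each had 1 row in every file, and all 10 were among the 18248 genes tested.

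RNA was sequenced from cultured mouse cells labelled as cavernous endothelial cells and grown from the erectile tissue of the penis in M199 medium with fetal bovine serum and heparin, a soluble relative of heparan sulfate. Treatment lasted 5 days. Cells received high glucose with Hsp70, a heat shock chaperone (n = 4), high glucose alone (n = 4) or normal glucose (n = 3). The labels used here give no glucose concentration, no form or dose of Hsp70, no strain and no age. They do not say whether replicates came from separate cultures or mice, and a p-value here therefore measures the spread between libraries, which may be technical. The file names carry a set number. All 3 groups are represented once in sets 3, 4 and 5, whereas set 2 consists of 1 Hsp70 and 1 high glucose library.

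Libraries held 24.8 to 27.8 M normalized counts. The number of genes listed at 0 was 2753 in every library of sets 4 and 5. It was 4916 to 6010 in the libraries of sets 2 and 3. Values near 0 were thus not alike between these sets, and the cause was not tested. Its part in the differences among sets and in the values of genes with few counts was not tested either. Levels are given as log2(normalized count + 1), differences as log2 differences on that scale, and adjusted p-values come from limma over all 18248 genes. Set 3 stood apart. There the 12 endothelial markers summed to 1917 to 2121 normalized counts, against 403 to 645 in the other sets, where 3 of the 12 had a median count under 1. The 10 fibroblast markers summed to 313353 to 388585 in set 3, against 156980 to 256811 in the other sets. That sum was carried largely by Dcn, at 17.08 to 17.63 in set 3 and 15.17 to 16.02 elsewhere. Col1a1 overlapped, at 14.20 to 14.55 in set 3 and 13.96 to 14.76 elsewhere. Of the 10 markers 7 were above 0 in set 3 against the others, 4 of them called, and 3 were below 0. The fibroblast sum exceeded the endothelial sum in every library, but such sums follow the most abundant transcripts of a list and do not measure shares of cells. Leukocyte markers summed to 4741 to 5616 in set 3, against 539 to 876 in the other sets, and Schwann cell markers to 3739 to 7578, against 973 to 2530. Smooth muscle and pericyte markers summed to 11269 to 14140 in set 3, against 9174 to 12318, and epithelial markers to 40 to 46, against 38 to 125. A pair of libraries from different sets also stood apart, Hsp70 replicate 3 (set 4) and normal glucose replicate 1 (set 3). They were the 2 lowest of the 11 libraries for 2120 genes (11.6%) and the 2 highest for 1374 (7.53%), a count made after the Fgf2 values had been seen.

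The levels of the 10 genes differed widely when set per length of the longest annotated transcript (GENCODE M21). Fgf7 was highest, with a median of 6551 normalized counts per kb over the 11 libraries and a range of 3730 to 10280. Fgfr1 followed with 1708 per kb (1492 to 1903), and Fgf10 with 1225 per kb (863 to 1673). Neither overlapped Fgf7, but Fgfr1 and Fgf10 overlapped each other, and their order turned round with the length of all annotated exons, at 871.7 per kb for Fgfr1 and 1095 per kb for Fgf10. Fgfrl1 stood at 447 per kb (371 to 515.5). Fgfr2 at 195 per kb (143 to 250), Fgf9 at 171 per kb (87.8 to 438) and Fgf2 at 167 per kb (30.1 to 247) overlapped and could not be ranked. Fgf18 had 42.3 per kb (23.0 to 55.2) and Fgf1 had 14.4 per kb (8.57 to 19.8). Fgfr3 was lowest, at 1.01 per kb (0.326 to 2.99).

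**Figure D1:**
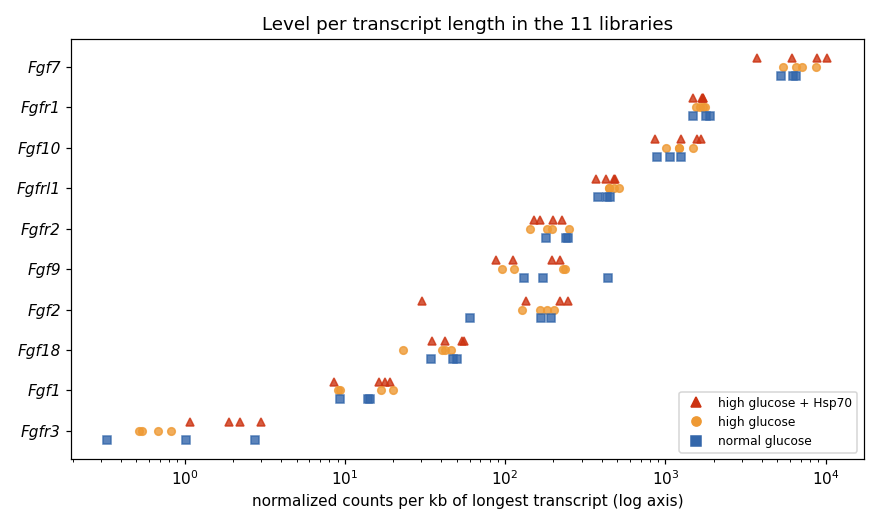
Normalized counts per kb of longest transcript (log axis) for the 10 genes, ordered by median; each symbol is 1 library, with high glucose plus Hsp70 above high glucose and normal glucose below. Fgf7 lies highest, between 3730 and 10280 per kb, Fgfr3 lies lowest, between 0.326 and 2.99 per kb, and the 3 groups overlap within every gene except for the separation of the Hsp70 and high glucose libraries in Fgfr3.

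Among all genes tested, 99.1% had a lower mean log2 level than Fgf7, 97.5% a lower one than Fgfr1 and 94.7% a lower one than Fgf10, with no correction for length. By the same measure 15.3% lay below Fgfr3. The spread of the genes over libraries was as uneven as their level. Fgf2 covered 3.03 log2 units from its lowest to its highest library, Fgfr3 covered 2.52 and Fgf9 covered 2.31, while the median gene covered 1.17. Fgfr1 covered 0.35, and 1.8% of genes covered less, and Fgfrl1 covered 0.47.

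None of the 10 genes passed the adjusted threshold of 0.05 in any of the 3 comparisons of groups, in which limma called 0 of 18248 genes (0%). At an unadjusted p under 0.05 there were 136 genes (0.745%) between high glucose with Hsp70 and high glucose, 1 of them among the 10. Between high glucose and normal glucose there were 185 (1.01%), and between high glucose with Hsp70 and normal glucose 178 (0.975%), with none of the 10 in either. With the file set as a block these counts were 305 (1.67%), 636 (3.49%) and 587 (3.22%) in the same order, with 1, 0 and 0 of the 10, and 0 genes passed after adjustment. All these shares lay below the 0.05 that tests without any true difference give on average, and those of the fit without the set lay farthest below. The last 2 comparisons share their normal glucose libraries, and the high glucose libraries serve in 2 comparisons as well. Differences were above 0 in 5 of the 10 genes for high against normal glucose, as in 47.9% of all genes. The count was 4 of 10 for Hsp70 against high glucose, where it was 50.7% of all genes, and 6 of 10 for Hsp70 against normal glucose, where it was 49.1%. The median difference of the 10 was 0.02, -0.02 and 0.07 in these 3 comparisons, beside -0.01, 0.00 and 0.00 over all genes.

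**Figure D2:**
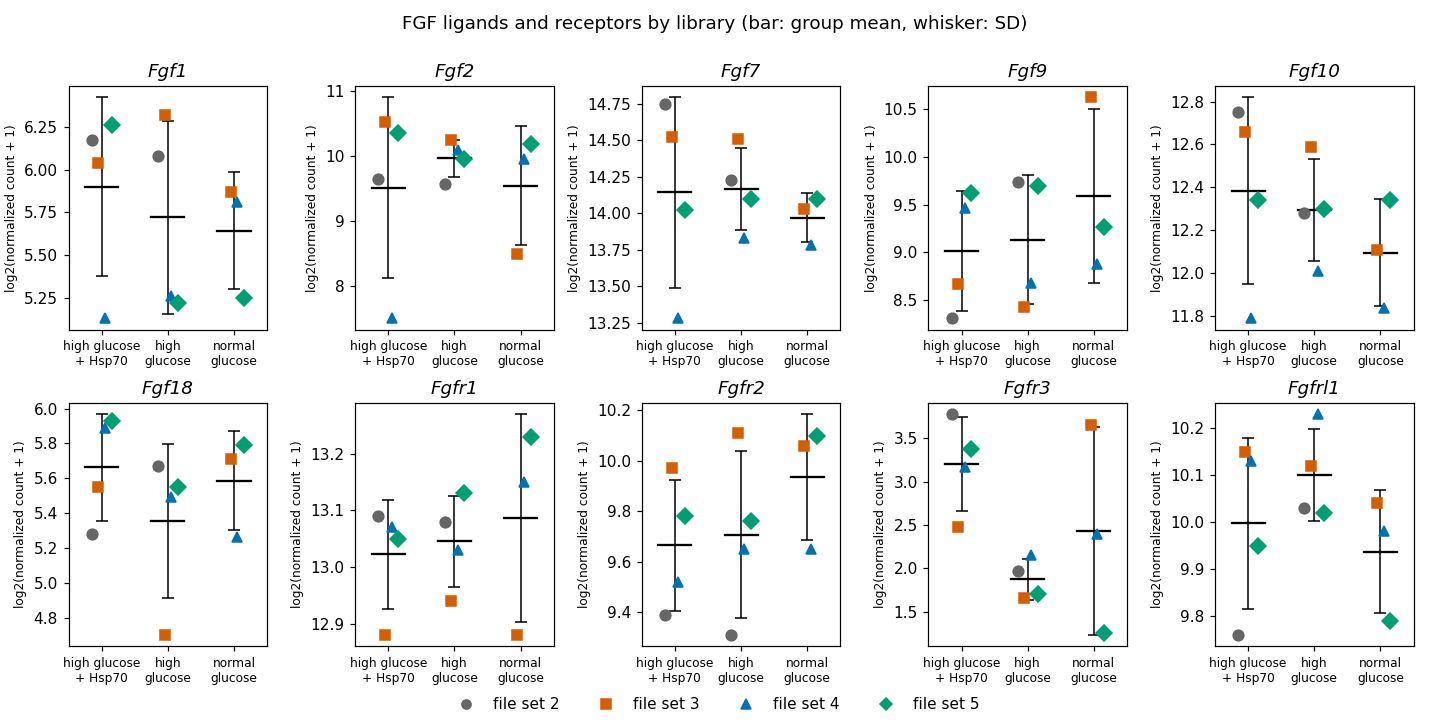
Level of each gene in log2(normalized count + 1) by library, with high glucose plus Hsp70 at the left of each panel, high glucose in the middle and normal glucose at the right; bars are group means, whiskers are the SD (n = 4, 4 and 3), and the symbol gives the file set. The Hsp70 and high glucose libraries do not overlap for Fgfr3 (2.48 to 3.78 against 1.66 to 2.16), Hsp70 replicate 3 lies lowest for Fgf2 at 7.50, and the 3 set 3 libraries lie lowest for Fgfr1.

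Fgf1, the acidic FGF that binds every FGF receptor, lies on chromosome 18. It stood at 6.17, 6.04, 5.13 and 6.26 in high glucose with Hsp70 (replicates 1 to 4), at 6.08, 6.32, 5.26 and 5.22 in high glucose, and at 5.87, 5.81 and 5.25 in normal glucose. Each group held low and high libraries, and the groups overlapped throughout. The difference of high minus normal glucose was 0.08 (SE 0.37) and Hsp70 minus high glucose was 0.18 (SE 0.343), each with adjusted p = 1. The second was 0.44 without Hsp70 replicate 3 and 0.0139 without high glucose replicate 4. Within sets 2 to 5, Hsp70 minus high glucose was 0.09, -0.28, -0.12 and 1.04. The gene shares its bases with Arhgap26 on the opposite strand and with Gm5820, and the strand setting of the counting is not given in the sources used here.

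Fgf2, the basic FGF and a ligand widely used to keep endothelial cells growing in culture, lies on chromosome 3 (RefSeq, GRCm38.p6, 37348477 to 37410106, plus strand). It stood at 9.65, 10.53, 7.50 and 10.36 in high glucose with Hsp70, at 9.57, 10.25, 10.09 and 9.95 in high glucose, and at 8.50, 9.96 and 10.18 in normal glucose. A pair of libraries carried its spread: Hsp70 replicate 3 at 7.50 and normal glucose replicate 1 at 8.50 were lowest, and the other 9 lay between 9.57 and 10.53. High minus normal glucose was 0.42 (SE 0.637, adjusted p = 1) with all libraries and -0.11 (SE 0.257) without those 2 libraries. Hsp70 minus high glucose was -0.46 (SE 0.59, adjusted p = 1) with all libraries and 0.22 (SE 0.227) without them. Hsp70 minus normal glucose was -0.04 (SE 0.637) with all libraries and 0.11 (SE 0.271) without them, so the sign of all 3 differences turned with this pair. By set (3, 4 and 5), high minus normal glucose was 1.75, 0.12 and -0.23, and Hsp70 minus normal glucose was 2.03, -2.47 and 0.18.

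The 3 prime end of Fgf2 shares 5125 bases with Nudt6, a gene of the nudix hydrolase family that is transcribed from the opposite strand and is known as its antisense partner. Nudt6 stood at 9.77, 11.25, 8.76 and 10.61 in high glucose with Hsp70, at 10.14, 11.02, 10.71 and 10.24 in high glucose, and at 9.47, 10.57 and 10.39 in normal glucose. Its lowest libraries were the same pair as for Fgf2. Without a stated strand, reads in the shared bases cannot be assigned to 1 of these genes. Over the 11 libraries the 3 tested genes most like Fgf2 in their deviations from the mean were Rp2h, Tenm1 and Gm10033, at root mean square differences of 0.205, 0.206 and 0.208.

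Fgf7, the keratinocyte growth factor, lies on chromosome 2 (126034658 to 126091185, plus strand), wholly within Fam227b on the opposite strand. It stood at 14.75, 14.52, 13.28 and 14.02 in high glucose with Hsp70, at 14.23, 14.51, 13.83 and 14.10 in high glucose, and at 14.03, 13.78 and 14.10 in normal glucose. The 3 libraries of set 4 were lowest, at 13.28 to 13.83, and every other library lay at 14.02 or above, whatever its treatment. For Fgf7 high minus normal glucose was 0.20 (SE 0.301) and Hsp70 minus high glucose was -0.03 (SE 0.279), each with adjusted p = 1. Without Hsp70 replicate 3, Hsp70 minus high glucose was 0.26. Fam227b stood at 3.56 to 5.65 in the 11 libraries, far below Fgf7.

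Fgf10, the relative of Fgf7 that drives branching of lung and gland epithelium in the mouse, lies on chromosome 13 (118714699 to 118792573, plus strand). It stood at 12.75, 12.66, 11.79 and 12.34 in high glucose with Hsp70, at 12.28, 12.59, 12.01 and 12.30 in high glucose, and at 12.11, 11.84 and 12.34 in normal glucose. Again set 4 was lowest, at 11.79 to 12.01, below every library of the other sets at 12.11 to 12.75. For Fgf10 high minus normal glucose was 0.20 (SE 0.234) and Hsp70 minus high glucose was 0.09 (SE 0.217), each with adjusted p = 1. Hsp70 minus normal glucose was 0.29 (SE 0.234, adjusted p = 1). It was 0.49 (SE 0.221, unadjusted p = 0.0497, adjusted p = 1, limma) without Hsp70 replicate 3 and normal glucose replicate 1. These libraries were left out after the data were seen. Hsp70 replicate 3 was the lowest library of Fgf10, so leaving it out was bound to raise this difference, and that p is no evidence of one.

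Fgf7 and Fgf10 moved together from library to library. Relative to its own median, Fgf7 lay at 0.65, 0.43, -0.81 and -0.08 in the Hsp70 libraries, at 0.13, 0.42, -0.27 and 0.00 in high glucose and at -0.07, -0.32 and 0.01 in normal glucose. Fgf10 lay at 0.45, 0.36, -0.51 and 0.04 in the Hsp70 libraries, at -0.02, 0.29, -0.29 and 0.00 in high glucose and at -0.19, -0.46 and 0.04 in normal glucose. Their root mean square difference over the 11 libraries was 0.14, the smallest of the 45 pairs of these genes. Among all tested genes Fgf10 was the 5th nearest to Fgf7, and Fgf7 was the 9th nearest to Fgf10. This pair was singled out after its values had been seen, and the 11 libraries share their sets.

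**Figure D3:**
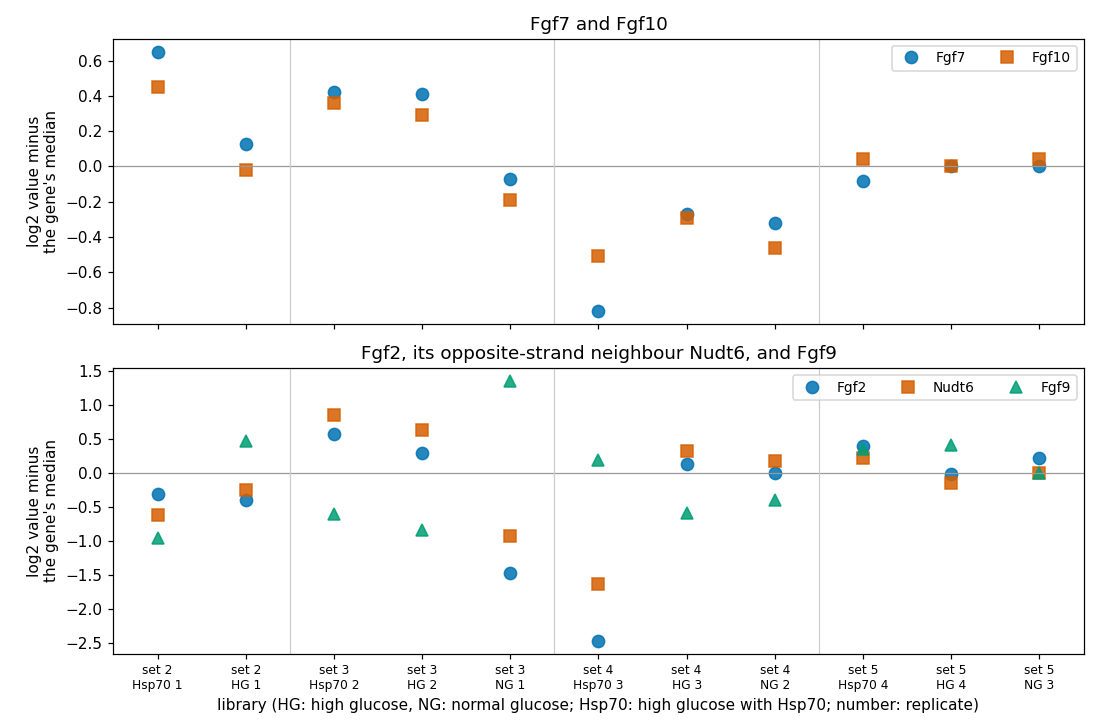
Log2 level minus the gene's own median over the 11 libraries, ordered by file set and, within a set, high glucose with Hsp70, high glucose and normal glucose. In the upper panel Fgf7 and Fgf10 lie within 0.31 log2 units of each other in every library and are low in set 4; in the lower panel Fgf2 and Nudt6 are both lowest in Hsp70 replicate 3 and normal glucose replicate 1, while Fgf9 is highest in normal glucose replicate 1.

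The sequences just upstream of the start sites of Fgf7 and Fgf10 are shown (RefSeq, GRCm38.p6, plus strand, 250 bases ending at the base before the annotated start). Whether they bear on the shared movement of the 2 ligands was not tested. Capitals mark the motif matches. The window of Fgf7 is chr2:126034408-126034657 and the window of Fgf10 is chr13:118714449-118714698.
Fgf7: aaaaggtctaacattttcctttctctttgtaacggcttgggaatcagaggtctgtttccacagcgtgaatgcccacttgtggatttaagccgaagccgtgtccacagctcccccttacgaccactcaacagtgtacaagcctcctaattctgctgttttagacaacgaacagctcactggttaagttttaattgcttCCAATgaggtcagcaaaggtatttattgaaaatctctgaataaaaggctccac
Fgf10: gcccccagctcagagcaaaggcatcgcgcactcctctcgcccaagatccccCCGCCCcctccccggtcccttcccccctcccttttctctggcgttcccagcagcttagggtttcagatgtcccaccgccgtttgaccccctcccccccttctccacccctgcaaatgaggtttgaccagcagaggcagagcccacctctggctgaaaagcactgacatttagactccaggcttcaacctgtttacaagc

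Neither window held a match for a motif found in the other, among 5 motifs searched on both strands. Fgf7 held 1 CCAAT, a motif present in 33.8% of the 32851 windows of this length in the table. Fgf10 held 1 GGGCGG, read on the opposite strand as CCGCCC and present in 32.7% of windows. Neither held the TATA box TATAAA, present in 12.4% of windows. Neither held the AP-1 site TGACTCA, present in 4.46%, nor the heat shock element core GAANNTTC, present in 6.69%. The G and C share was 43.6% for Fgf7 and 61.2% for Fgf10, against a median of 52.4% over all windows. The table held windows for 8 of the 10 genes, and the last 3 motifs were found in none of these 8.

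Fgf9, a ligand with a preference for the c isoforms of FGFR2 and FGFR3, lies on chromosome 14 (58070671 to 58112854, plus strand). It stood at 8.31, 8.67, 9.46 and 9.62 in high glucose with Hsp70, at 9.74, 8.43, 8.68 and 9.69 in high glucose, and at 10.62, 8.88 and 9.27 in normal glucose. Normal glucose replicate 1 was highest of all 11 libraries, and the remaining 10 mixed across groups between 8.31 and 9.74. High minus normal glucose was -0.46 (SE 0.477, adjusted p = 1) and 0.06 (SE 0.45) without normal glucose replicate 1. Within sets 3, 4 and 5 it was -2.19, -0.21 and 0.42. Hsp70 minus high glucose was -0.12 (SE 0.441, adjusted p = 1) and took the values -1.43, 0.24, 0.78 and -0.07 in sets 2 to 5. The tested genes most like Fgf9 over the libraries were Myoz3, Sv2c and BC021785, at root mean square differences of 0.232, 0.265 and 0.27.

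Fgf18, a ligand known from growing cartilage and bone, lies on chromosome 11 (33116970 to 33147400, minus strand). It stood at 5.28, 5.55, 5.89 and 5.93 in high glucose with Hsp70, at 5.67, 4.70, 5.49 and 5.55 in high glucose, and at 5.71, 5.26 and 5.79 in normal glucose. High glucose replicate 2 was lowest and the groups overlapped. For Fgf18 high minus normal glucose was -0.23 (SE 0.308) and Hsp70 minus high glucose was 0.31 (SE 0.285), each with adjusted p = 1. In sets 2 to 5 the second difference was -0.39, 0.85, 0.40 and 0.38.

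Of the receptors, Fgfr1 is the main one of mesenchymal and endothelial cells and lies on chromosome 8 (25518759 to 25575718, plus strand). It stood at 13.09, 12.88, 13.07 and 13.05 in high glucose with Hsp70, at 13.08, 12.94, 13.03 and 13.13 in high glucose, and at 12.88, 13.15 and 13.23 in normal glucose. This was the steadiest of the 10 genes, and the 3 libraries of set 3 were its lowest in all groups. For Fgfr1 high minus normal glucose was -0.04 (SE 0.142, 95% interval -0.35 to 0.27). Its Hsp70 minus high glucose difference was -0.02 (SE 0.131, 95% interval -0.31 to 0.27), and Hsp70 minus normal glucose was -0.06 (SE 0.142, 95% interval -0.37 to 0.25). All 3 intervals of Fgfr1 included 0. The noncoding Gm16159, on the opposite strand inside the gene, stood at 9.87 to 10.30.

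Fgfr2 lies on chromosome 7 (130162451 to 130266808, minus strand). Its b isoform is the receptor of Fgf7 and Fgf10, and gene-level values do not separate the b and c isoforms. It stood at 9.39, 9.97, 9.52 and 9.78 in high glucose with Hsp70, at 9.31, 10.11, 9.65 and 9.76 in high glucose, and at 10.06, 9.65 and 10.10 in normal glucose. The libraries ordered by set more than by treatment, with set 2 at 9.31 to 9.39, set 4 at 9.52 to 9.65, set 5 at 9.76 to 10.10 and set 3 at 9.97 to 10.11. Over all libraries high minus normal glucose was -0.23 (SE 0.209) and Hsp70 minus normal glucose was -0.28 (SE 0.209), each with adjusted p = 1. The normal glucose group holds no library of set 2, the lowest set. Inside sets 3, 4 and 5 Hsp70 minus normal glucose was -0.09, -0.13 and -0.33. For high minus normal glucose the set values were 0.05, 0.00 and -0.35. Without high glucose replicate 1, a set 2 library, that difference was -0.0985, and without normal glucose replicate 2 it was -0.38.

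Fgfr3, a receptor that restrains bone growth and that Fgf9 and Fgf18 bind well, lies on chromosome 5 (33721724 to 33737068, plus strand). It stood at 3.78, 2.48, 3.17 and 3.38 in high glucose with Hsp70, at 1.97, 1.66, 2.16 and 1.71 in high glucose, and at 3.65, 2.40 and 1.25 in normal glucose. The 4 Hsp70 libraries lay above the 4 high glucose libraries without overlap, and normal glucose covered almost the whole range of both. As normalized counts these are 12.7, 4.57, 8.03 and 9.41 with Hsp70, 2.93, 2.16, 3.47 and 2.28 in high glucose and 11.6, 4.28 and 1.39 in normal glucose, so each value rests on a handful of reads. Hsp70 minus high glucose was 1.33 (SE 0.52, 95% interval 0.19 to 2.46), with an unadjusted p of 0.0254 and an adjusted p of 1 by limma. Within sets 2 to 5 it was 1.80, 0.82, 1.02 and 1.67, higher with Hsp70 in 4 of 4 sets. Leaving out 1 library at a time gave 1.14 (without Hsp70 replicate 1, unadjusted p = 0.0698, limma) to 1.57 (without Hsp70 replicate 2, unadjusted p = 0.016, limma).

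The background for Fgfr3 is given by all genes tested. Groups did not overlap between Hsp70 and high glucose for 111 genes (0.608%), and the difference had the same sign in all 4 sets for 1516 (8.31%). Fgfr3 was the only one of the 10 in either count. None of the 10 had groups without overlap between high and normal glucose (435 genes, 2.38%) or between Hsp70 and normal glucose (314 genes, 1.72%). High minus normal glucose was -0.56 (SE 0.562, adjusted p = 1), with -1.99, -0.24 and 0.46 in sets 3, 4 and 5. Hsp70 minus normal glucose was 0.77 (SE 0.562, adjusted p = 1), with -1.17, 0.78 and 2.13 in those sets. Single normal glucose libraries moved the second value, to 1.38 without replicate 1 (unadjusted p = 0.029, limma) and to 0.18 without replicate 3 (unadjusted p = 0.755, limma). It was 1.62 without set 3 (unadjusted p = 0.0171, limma) and 1.38 without both Hsp70 replicate 3 and normal glucose replicate 1 (unadjusted p = 0.042, limma), with no adjusted p under 0.05 in any of these fits. With 5 in place of 1 as the number added before the log, Hsp70 minus high glucose was 0.80. The tested genes most like Fgfr3 were Ctrl, Snhg10 and Snhg7, at root mean square differences of 0.45, 0.498 and 0.536.

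Fgfrl1, which binds FGFs and heparin but lacks a kinase domain, lies on chromosome 5 (108694229 to 108706950, plus strand). It stood at 9.76, 10.15, 10.13 and 9.95 in high glucose with Hsp70, at 10.03, 10.12, 10.23 and 10.02 in high glucose, and at 10.04, 9.98 and 9.79 in normal glucose. High minus normal glucose was 0.16 (SE 0.142, adjusted p = 1) and was 0.08, 0.25 and 0.23 in sets 3, 4 and 5. It was the only one of the 10 with the same sign in all 3 sets there, as for 4679 of all genes (25.6%). Hsp70 minus normal glucose was 0.06 (SE 0.142, adjusted p = 1) with 0.11, 0.15 and 0.16 in the sets. For that comparison 2 of the 10, Fgfr2 below 0 and Fgfrl1 above 0, kept 1 sign, as did 3202 of all genes (17.5%).

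**Figure D4:**
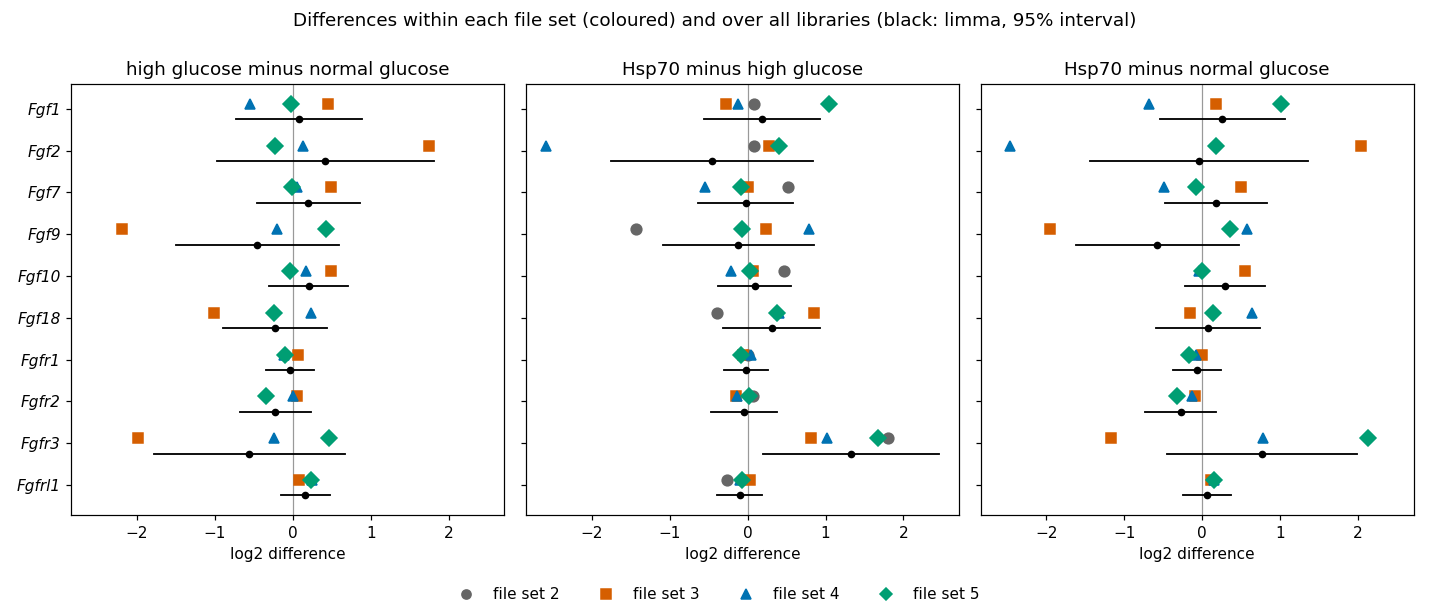
Log2 differences of the 10 genes in high glucose minus normal glucose, Hsp70 minus high glucose and Hsp70 minus normal glucose; coloured symbols are single file sets, black points the limma estimate over all libraries with its 95% interval. Fgfr3 in Hsp70 minus high glucose, at 1.33 with an interval of 0.19 to 2.46, is the only interval that leaves out 0, and Fgf2 spreads from -2.59 to 0.41 over the sets of that comparison.

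The family has other ligands, of which 16 were looked up and 11 were tested. Fgf5 stood at 6.43 to 7.89 in the 11 libraries and Fgf13, an intracellular relative that does not signal through FGF receptors, at 7.83 to 8.44. Fgf3 and Fgf4 were listed at 0 in all libraries. No ligand of this list was called in a comparison of groups. Fgf21, a hormone of fasting made mainly by liver, had normalized counts of 5.88, 2.38, 8.02 and 0.02 with Hsp70, of 0.00, 0.00, 0.04 and 0.03 in high glucose and of 0.00, 0.02 and 0.06 in normal glucose. It was thus seen in 3 of 4 Hsp70 libraries, at counts of 2.38 to 8.02, and lay at no more than 0.06 in the other 8 libraries. Fgf21 passed the filter of a normalized count of 1 in 3 libraries through those Hsp70 libraries alone, so its difference was bound to be above 0 and no test of it is given. How many of all genes near the floor show such a pattern was not counted, so these values do not link Fgf21 to Hsp70. Fgf8, an embryonic patterning ligand, gave 1.13 for high minus normal glucose (SE 0.565, unadjusted p = 0.0689, adjusted p = 1, limma) at counts of at most 5.20.

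Partners of the hormone-like ligands were near the floor. Kl and Klb, the klotho co-receptors, had normalized counts of 0.61 to 7.02 and 0.02 to 5.46 over all libraries, and Fgfr4 of at most 3.72. Esrp1 and Esrp2, the epithelial splicing factors that favour the b isoforms of the receptors, stood at 0.00 to 2.86 and at 1.67 to 4.89 on the log2 scale. Rbfox2, another splicing factor that acts on the alternative exons of Fgfr2, stood at 11.59 to 12.60. Flrt2, a membrane protein that binds FGF receptors, stood at 12.69 to 14.21.

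Around the receptors, 0 of 19 heparan sulfate core proteins and enzymes and 0 of 4 splice regulators tested were called between groups. Downstream of them, 0 of 18 adaptors and kinases, 0 of 11 feedback inhibitors and 0 of 11 target genes were called. The medians for high minus normal glucose were -0.04 for the heparan sulfate list, 0.03 for the adaptors, 0.15 for the feedback inhibitors and 0.04 for the targets, beside -0.01 over all genes. For Hsp70 minus high glucose they were -0.02, -0.01, -0.12 and -0.06 in the same order, beside 0.00 over all genes. Of the feedback inhibitors 9 of 11 were below 0 in that comparison, as were 49.3% of all genes, and without Hsp70 replicate 3 the count was 4 of 11, beside 45.6% of all genes. Il17rd, a membrane antagonist of FGF receptors, had the smallest p of the list, at -0.19 (SE 0.22, adjusted p = 1, limma), and was at -0.05 without that library. Spry2, a sprouty protein, had the smallest p of the list for high minus normal glucose, at 0.26 (SE 0.205, adjusted p = 1, limma). Etv5, a transcription factor that FGF signals induce, gave 0.14 (SE 0.188, adjusted p = 1, limma) there.

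More genes passed among the 4 file sets than among the groups. Of 18248 genes, 2165 (11.9%) were called among the sets by limma, and these included 1 of the 10. That gene was Fgfr2 (F = 8.85, adjusted p = 0.0418). When 1 library was left out at a time, Fgfr2 kept the call only without Hsp70 replicate 3 (adjusted p = 0.0156), and the other 10 fits gave adjusted p of 0.0501 to 0.187. The count over all genes was 5195 without that library. It was 613 without high glucose replicate 2, 926, 1022 and 1210 without Hsp70 replicates 2, 1 and 4, 1051 without normal glucose replicate 3 and 1356 without high glucose replicate 1. Fgf7 (F = 5.35, adjusted p = 0.0999) and Fgf10 (F = 4.97, adjusted p = 0.113) passed only without adjustment, as did 17.8% of all genes, and with Fgfr2 this made 3 of the 10 at an unadjusted p under 0.05, beside 29.6% of all genes. Libraries of 1 set may share a culture or a run, which the labels do not give, so these tests describe the 4 sets and not sets in general.

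Without Hsp70 replicate 3 and normal glucose replicate 1, an alternative chosen after the data were seen, limma called 6173 genes among the sets (33.8%) and 4 of the 10. These were Fgf2 (F = 14.5, adjusted p = 0.00425), Fgf7 (F = 8.22, adjusted p = 0.0188), Fgf10 (F = 6.31, adjusted p = 0.0353) and Fgfr2 (F = 12.1, adjusted p = 0.00698). The pair was picked from the values of Fgf2, where it was lowest, so leaving it out was bound to narrow the spread of Fgf2. With all libraries Fgf2 had F = 0.661, and its call without the pair is no evidence of a difference among sets. Fgf7 gave F = 3.96 without Hsp70 replicate 3 alone and 8.02 without normal glucose replicate 1 alone. Fgf10 gave 2.86 and 7.67 in these fits. Neither gene was called with a single library left out, so their calls depend on leaving out both libraries of the pair. In the comparisons of groups limma still called 0 genes without this pair. Over the lists of FGF ligands, receptors and pathway genes, 18 of 90 tested genes had their 2 lowest values in this pair and 3 had their 2 highest, beside the 11.6% and 7.53% of all genes given above.

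The genes lowest in that pair, named here because of their values, included Frs2, the docking protein of FGF receptors, at 9.65 in Hsp70 replicate 3 and 9.81 in normal glucose replicate 1, with the others at 10.59 to 11.32. The Ras activator Sos1 stood at 9.51 and 9.97, with the others at 10.89 to 11.88. Cbl, a ubiquitin ligase that takes receptors off the surface, stood at 8.54 and 8.98, with the others at 10.46 to 11.56, and Braf stood at 8.97 and 9.43, with the others at 10.20 to 11.30. These genes shared the pattern of Fgf2 although the 2 libraries differ in treatment and in set. The syndecan Sdc4, a heparan sulfate carrier, was among the 3 highest in the pair, at 13.30 and 13.42, with the others at 12.73 to 13.21. What sets the pair apart was not tested.

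Set 3 was compared with the mean of sets 2, 4 and 5, with the group as a term, a contrast chosen with results known. Of all genes 1499 were called higher (8.21%) and 818 lower (4.48%), and of the 10 genes 1 was called higher. Fgfr2 was 0.42 higher in set 3 (SE 0.102, adjusted p = 0.0262, limma), at 10.05 on average, though set 5 reached 10.10. The call was lost with median centring (adjusted p = 0.0687) and with a fit that had neither a trend nor robust variances (adjusted p = 0.0576). It was also lost without Hsp70 replicate 2 (0.121) or 4 (0.0574), high glucose replicate 1 (0.0704), 2 (0.226) or 4 (0.0524), or normal glucose replicate 2 (0.0578), while the difference stayed at 0.35 or above. The count of called genes was 3804 without Hsp70 replicate 3, 1214 without Hsp70 replicate 2 and 966 without high glucose replicate 2. Fgfr1 gave -0.21 (SE 0.093, unadjusted p = 0.0486, adjusted p = 0.195, limma), with 12.88 to 12.94 in set 3 and 13.03 to 13.23 elsewhere. Unadjusted p-values under 0.05 were found for 2 of the 10 and for 25.3% of all genes. Of the 10, 7 lay above 0, as did 49.8% of all genes, and their median was 0.14, beside 0.00 over all genes. In bulk RNA, fewer cells of a type and less RNA per cell cannot be told apart, and the part of the marker shifts of set 3 in these values was not tested.

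The genes around the receptors differed in set 3 in both directions. Of 19 heparan sulfate genes 3 were called higher and 4 lower, beside 8.21% and 4.48% of all genes. Whether this list or those below differ from all genes was not tested. Gpc3, a glypican core protein, was 2.66 higher (SE 0.269, adjusted p = 0.000224, limma), at 6.29 to 6.95 in set 3 and 3.41 to 4.59 elsewhere. The sulfatases that trim heparan sulfate parted, with Sulf1 higher (0.97, adjusted p = 0.00084, limma) and Sulf2 lower (-0.79, adjusted p = 0.00098, limma). The 6-O-sulfotransferase Hs6st2 gave -0.76 (adjusted p = 0.0031, limma).

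Of 11 feedback inhibitors 1 was called higher in set 3 and 4 lower, beside 8.21% and 4.48% of all genes. Spry1 was the higher one, by 0.94 (SE 0.163, adjusted p = 0.00478, limma). The phosphatases Dusp4 (-0.90), Dusp5 (-1.18) and Dusp6 (-0.43), which act on MAP kinases, were lower, with adjusted p of 0.00385, 0.00657 and 0.035 by limma. Dusp6 stood at 9.91 to 10.08 in set 3 and 10.10 to 10.83 elsewhere. Dusp5 overlapped, at 4.35 to 5.16 in set 3 and 4.87 to 6.33 elsewhere. Of 11 target genes, Ier3 (0.85) and Fos (0.79) were called higher and Ccnd1, the cyclin D1 gene, lower (-0.57, adjusted p = 0.0238, limma). Of the 18 adaptors and kinases and the 11 other ligands 0 were called, and of the 4 splice regulators Rbfox2 was called lower (-0.54, adjusted p = 0.0204, limma). Whether the calls of these pathway genes hold in the alternative fits, as looked at for the 10 genes, was not tested.

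**Figure D5:**
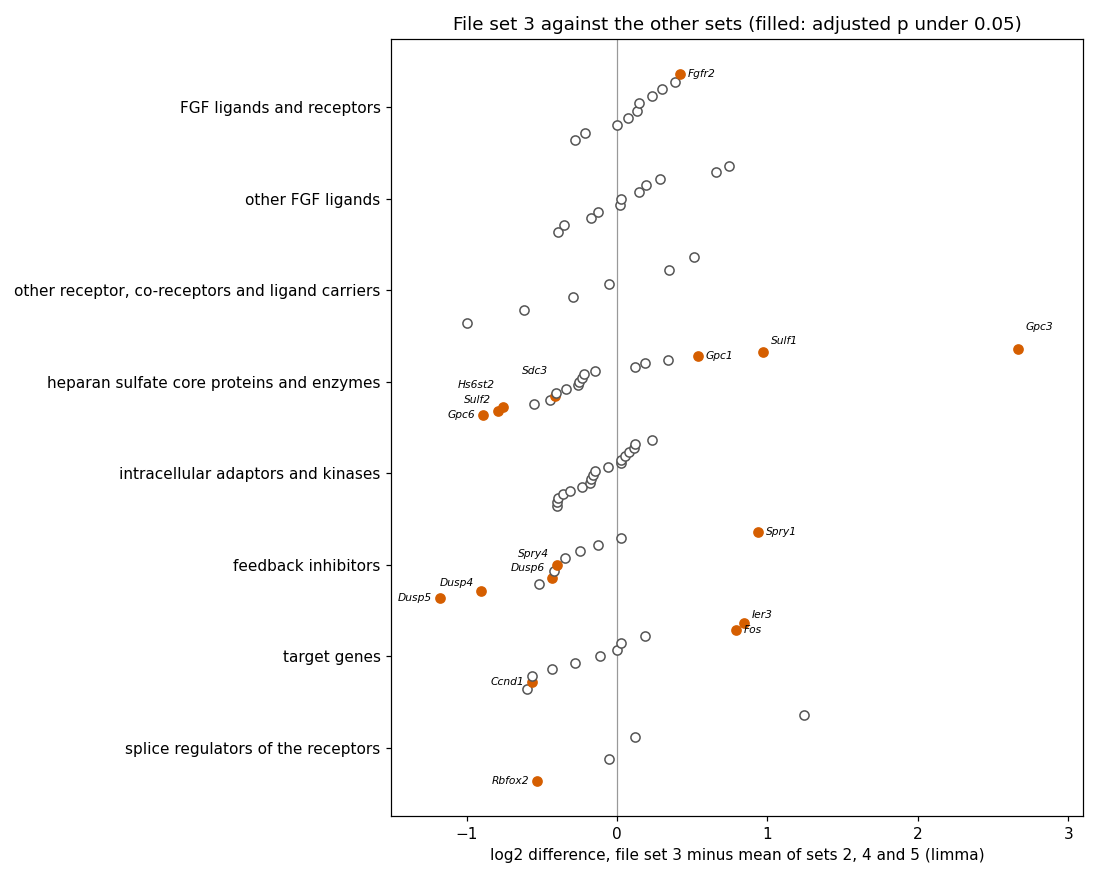
Log2 difference of set 3 minus the mean of sets 2, 4 and 5 from limma, with 1 point per tested gene and 1 row per list; filled points have an adjusted p under 0.05. Fgfr2 at 0.42 is the filled point among the 10 ligands and receptors, Gpc3 at 2.66 lies farthest out, and the feedback inhibitors hold Spry1 at 0.94 and Dusp5 at -1.18 on opposite sides.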

How the data were processed

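Messenger RNA of 11 libraries was sequenced after Trizol extraction and library preparation with the SMARTer Stranded kit, per the labels' protocols. TopHat, edgeR and the genome build mm10 are listed in the submitters' processing notes without versions. The sources used here do not give annotation, normalization or strand setting. The values deposited by the authors are on a log2 scale, taken from their form to be log2(normalized count + 1).

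Of 23282 rows, 44 lower copies of repeated symbols were dropped. The 18248 genes tested reached a normalized count of 1 in 3 or more libraries. Differences were fitted with limma 3.58.1 in R 4.3.3 (trended, robust), with 3 group means in 1 model, or with group and file set for differences among sets. P-values were adjusted by Benjamini-Hochberg over all tested genes at 0.05. The script was tested on simulated data. Plots used matplotlib 3.10.9 (Python 3.11.15).

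The 10 genes, the lists and the set 3 contrast were chosen with earlier results of these data known. Pathway genes are named by smallest unadjusted p, up to 4 a list and comparison; other genes named were chosen after their values were seen. The genes most like Fgf2, Fgf9 and Fgfr3, the 3 with the widest range, are those with the smallest root mean square difference of mean-centred log2 values.

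Taking out group means, libraries of 1 file set correlated at 0.0219 to 0.691 over genes, and those sharing only a title number at -0.357 to 0.137. By file set every pair of high and normal glucose libraries exceeded 0.1 (0.285 to 0.594); pairs with Hsp70 libraries did not all do so. No 2 libraries were copies (smallest mean absolute log2 difference 0.33).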

Additional observations from a re-analysis of the deposited data

Results flagged for a closer look

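Fgfr1 in high glucose with Hsp70 stood at 12.88 in replicate 2, the set 3 library, while the other 3 libraries of the group lay between 13.05 and 13.09, so that the gap filled most of the group's range. The high glucose and normal glucose libraries of set 3, at 12.94 and 12.88, were also the lowest of their groups. Chance alone marks about 1 in 20 groups in this way, and 20 groups of 4 libraries were looked at.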

How the results depend on the processing

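None of the 10 genes was called between groups under any alternative run, and Fgfr3 stayed above 0 in Hsp70 minus high glucose (0.80 to 1.57). The file set or title number as a replicate block called 0 genes. With the file set as the block, Fgfr3 gave 1.33 (SE 0.527) in Hsp70 minus high glucose and Fgfrl1 gave 0.21 (SE 0.109) in high minus normal glucose. That block turned Fgf1 in high minus normal glucose to -0.0278 and Fgf2 in Hsp70 minus normal glucose to 0.00331, and the title number as a block turned Fgf18 in the second to -0.000587. The other differences that changed sign were all below the threshold, and the cause was not tested.

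High minus normal glucose, with set 3 left out, was -0.0103 for Fgf1, -0.20 for Fgf2, 0.29 for Fgf9, 0.0484 for Fgf18 and 0.12 for Fgfr3. With the set as a block as well it was -0.23 for Fgf1, -0.25 for Fgf2, -0.11 for Fgf7, 0.41 for Fgf9, -0.0264 for Fgf10, 0.13 for Fgf18 and 0.0323 for Fgfr3. In sets 3, 4 and 5 only it was -0.0437 for Fgf1. Without Hsp70 replicate 3 and normal glucose replicate 1 it was -0.11 for Fgf2, 0.0571 for Fgf9 and 0.049 for Fgfr3. Leaving out 1 library at a time gave -0.12 to 0.24 for Fgf1, -0.11 to 0.73 for Fgf2, -0.81 to 0.0571 for Fgf9, -0.14 to 0.0312 for Fgfr1 and -1.15 to 0.049 for Fgfr3.

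Hsp70 minus high glucose, in sets 3, 4 and 5 only, was 0.32 for Fgf9 and -0.0364 for Fgf10. Without the pair of libraries it was 0.22 for Fgf2, 0.26 for Fgf7 and 0.00255 for Fgfr2. Leaving out 1 library gave -0.79 to 0.22 for Fgf2, -0.23 to 0.26 for Fgf7, -0.35 to 0.12 for Fgf9, -0.0317 to 0.29 for Fgf10, -0.057 to 0.0269 for Fgfr1 and -0.18 to 0.0903 for Fgfr2, with 0 to 3 genes called.

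Hsp70 minus normal glucose was -0.0278 for Fgf7 in sets 3, 4 and 5 only. With set 3 left out it was 0.0544 for Fgf9, and with a block as well -0.15 for Fgf7 and 0.17 for Fgf9. Without the pair it was 0.11 for Fgf2. Leaving out 1 library gave -0.56 to 0.63 for Fgf2, -0.0278 to 0.46 for Fgf7, -0.0886 to 0.20 for Fgf18, -0.17 to 0.00988 for Fgfr1 and -0.0167 to 0.14 for Fgfrl1, with 0 to 3 genes called.

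Set 3 against the others turned for Fgf9 with quantile normalization (0.00852) and no group term (0.052). It turned for Fgfr3 with quantile normalization (-0.45), median centring (-0.0187) and without the pair (-0.75). Leaving out 1 library gave -0.54 to 0.87 for Fgf2, -0.70 to 0.51 for Fgf9, -0.51 to 0.0438 for Fgf18 and -0.63 to 0.64 for Fgfr3, with 966 to 3804 genes and 0 to 1 of the 10 called. Without the pair 3615 genes (19.8%) and 3 of the 10 were called. With median centring 2578 genes and 0 of the 10 were called, and without trend and robust variances 1914 genes and 0 of the 10.

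Among the sets, 1396 genes and 0 of the 10 were called without trend and robust variances. With median centring 2319 genes and 0 of the 10 were called, and with no group term 3152 genes and 2 of the 10. Without the pair, which was picked from the values of Fgf2, 6173 genes (33.8%) and 4 of the 10 including Fgf2 were called. Leaving out 1 library gave 613 to 5195 genes and 0 to 1 of the 10. Fgfr3 rests on 1.39 to 12.7 normalized counts, too few to resolve small differences, and a filter at higher counts gave no value for it.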
